A study of Homo sapiens with 13 samples.

Results

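The genes described here are 9 metalloproteases of the ADAM and ADAMTS families: ADAMTS1, ADAMTS4, ADAM8, ADAM9, ADAM10, ADAM12, ADAM15, ADAM17 and ADAM19. They were chosen by gene symbol, with earlier results of these data known. Each symbol had 1 of the 38369 gene rows of each deposited table. PolyA RNA was sequenced from MCF10A, human mammary epithelial cells that grow without limit but form no tumours, although the cell type label given for every sample is "breast cancer". In MCF10A-Src cells, which carry a tamoxifen-inducible Src kinase, 1 library was made at 0 h of tamoxifen, 2 at 4 h, 1 at 12 h and 2 at 36 h. The labels list no culture kept without tamoxifen for the same hours, so time in culture, tamoxifen and Src activity cannot be told apart. In parental MCF10A cells harvested 72 h after transduction, 3 libraries were untransduced (mock transduction by their description) and 2 were transduced with the long intergenic RNA (lincRNA) LINC00520. Both experiments used the same medium, which contained equine serum, hydrocortisone, cholera toxin, EGF and insulin. The 2 samples transduced with a control lincRNA were not analysed here, so transduction itself and LINC00520 cannot be told apart.

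ADAM proteins are membrane-anchored metalloproteases that cut the outer part off other membrane proteins, a step called ectodomain shedding. ADAM10 and ADAM17 are the best known of these sheddases: they release Notch, cadherins, the amyloid precursor, tumour necrosis factor and ligands of the EGF receptor. ADAMTS proteins are secreted relatives with thrombospondin repeats, and several of them, ADAMTS1 and ADAMTS4 included, cut the large matrix proteoglycans aggrecan and versican. Their activity is held in check by tissue inhibitors of metalloproteinases (TIMPs), of which TIMP3 is anchored in the matrix. RNA levels say nothing direct about the activity of these enzymes, which are made as inactive precursors.

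Library depth ranged from 22.9 to 36.4 M fragments in the over-expression experiment and from 12.6 to 52.3 M in the time course. LINC00520, read from the row linc-TBPL2-2, had 5, 6 and 2 fragments in untransduced and 1122 and 1031 in transduced cells. In the time course it had 91 fragments at 0 h, 30 and 22 at 4 h, 415 at 12 h, and 3346 and 2124 at 36 h. CPM is a gene's share of a library's fragments brought to a common scale. LINC00520 stood at 1.59 CPM at 0 h and at 1.56 and 0.934 CPM at 4 h. It reached 14.7 CPM at 12 h, and 162 and 202 CPM at 36 h. All 9 basal and epithelial marker genes were tested in both experiments, with a summed level of 8870 to 13279 CPM in the time course. Leukocyte markers summed to 9.97 CPM at 0 h and 19.3 to 22.3 CPM at 36 h, with MS4A1 and NKG7 at 0 in every library. Fibroblast markers summed to 83.2 CPM at 0 h and 178 to 203 CPM at 36 h, with COL1A2 at 0 in the time course; within that sum DCN alone went from 35.0 CPM to 114 and 148 CPM. Endothelial markers stayed at or below 6.04 CPM and erythroid markers at or below 0.580 CPM in the time course. Luminal hormone-receptor markers summed to 299 to 817 CPM in the time course and 21.4 to 24.3 CPM in parental cells. PGR had 0 fragments at 4 h and in parental cells, and which of the 4 luminal genes carried the sum was not examined. The part of these other marker genes in the results below was not tested. In bulk RNA, a change in the share of cells and a change in RNA per cell cannot be told apart.

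In the time course, 2 genes of the family went from near silence to high levels, and no other tested member changed by more than 3.12-fold in a comparison that passed the test. ADAMTS4 was 162-fold higher at 4 h than at 0 h and 17.5-fold higher at 36 h than at 4 h. ADAM19 was 2.29-fold higher at 4 h than at 0 h and 41.3-fold higher at 36 h than at 4 h. ADAM8 was 3.12-fold higher at 36 h than at 0 h. ADAM12 and ADAM15 fell from 4 h to 36 h, by 1.68-fold and 1.56-fold, and ADAM10 rose 1.45-fold over the same span, but these 3 calls were lost when a 36 h library was left out. ADAM9 and ADAM17 passed the threshold in none of the 7 comparisons by edgeR's quasi-likelihood (QL) test on all 6 time-course or all 5 over-expression libraries.

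**Figure D1:**
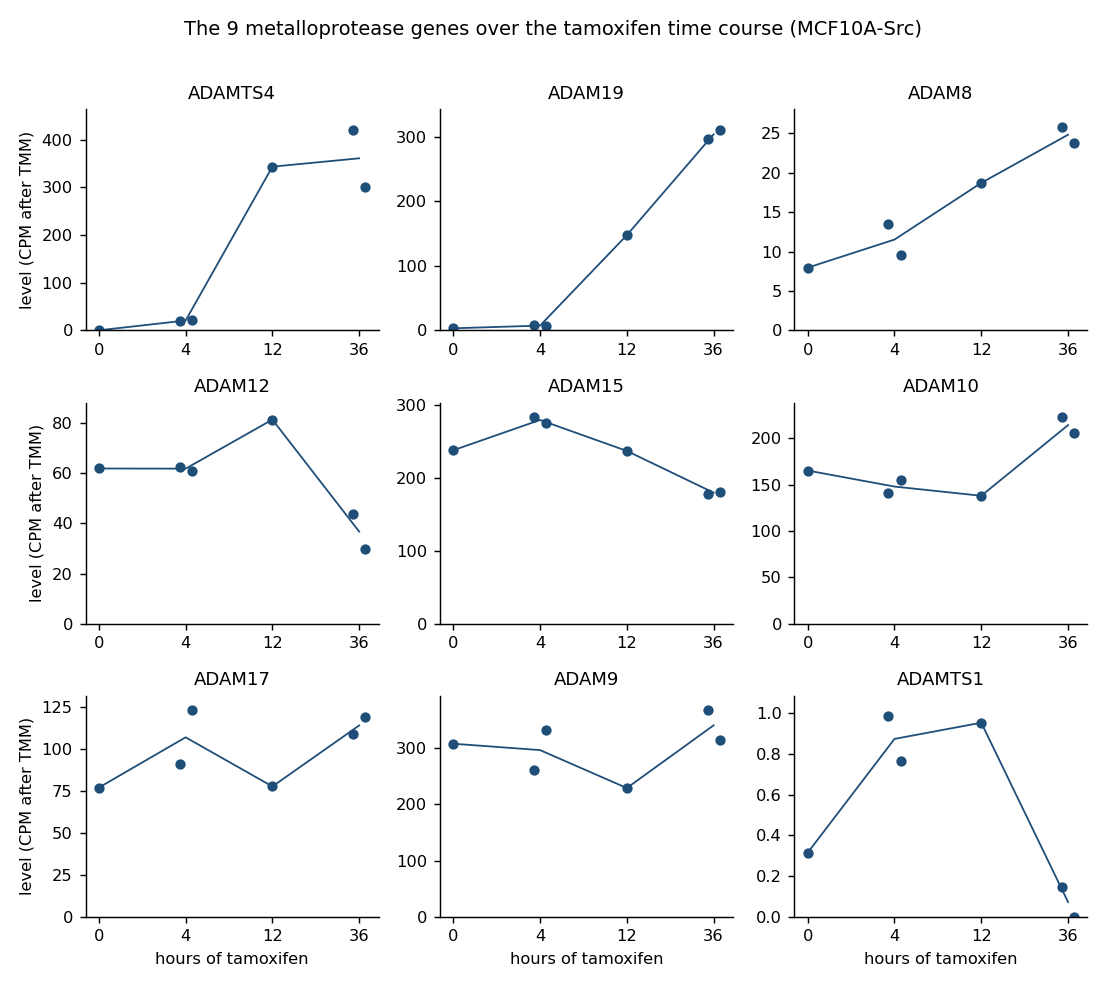
Level of each of the 9 genes in each time-course library, in CPM after scaling by edgeR's trimmed mean of M values (TMM), against hours of tamoxifen in evenly spaced steps. Points are libraries and the line joins the group means. Each panel has its own scale: ADAMTS4 ends at 421 and 302 CPM and ADAM19 at 297 and 310 CPM, while ADAMTS1 stays below 1 CPM throughout.

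ADAMTS4 (row on chromosome 1, 161159539 to 161168845, hg19) encodes the secreted protease also known as aggrecanase-1. Its level was 0.123 CPM at 0 h, 19.5 and 21.8 CPM at 4 h, 344 CPM at 12 h, and 421 and 302 CPM at 36 h. Every later library was above the 0 h library, every 12 h and 36 h library was above both 4 h libraries, and the 12 h library lay between the 36 h libraries. The 0 h library held 7 ADAMTS4 fragments, against 375 and 513 at 4 h. The 4 h to 0 h ratio of scaled counts was therefore 169, with an exact 95% interval of 81.7 to 422 that covers counting error only. The log2 fold change was 7.34 (SE 0.422) at 4 h against 0 h, with an adjusted p of 5.28e-04 (edgeR, Benjamini-Hochberg over all rows tested). From 4 h to 12 h it was 4.06 (SE 0.234, adjusted p = 2.27e-04), and from 12 h to 36 h it was 0.07 (SE 0.233, adjusted p = 0.851), so most of the climb had taken place by the single 12 h library. At 36 h against 4 h, the only comparison of the time course with 2 libraries on both sides, it was 4.13 (SE 0.218, adjusted p = 1.71e-05).

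A row named linc-ADAMTS4-AS, antisense by its name and at the same locus, moved with ADAMTS4. It had 1 fragment at 0 h, 47 and 72 at 4 h, 1288 at 12 h, and 941 and 310 at 36 h, and none in the over-expression experiment. Whether counting used strand was not given in the sources used here, so reads of the gene and of its antisense partner cannot be told apart. The antisense row had fewer fragments than ADAMTS4 in each time-course library, and its log2 fold change at 36 h against 4 h was 3.77 (SE 0.282, adjusted p = 8.07e-05, edgeR).

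ADAM19 (chromosome 5, 156693091 to 157003790, hg19) encodes meltrin beta, a sheddase whose known substrates include neuregulin. Its level was 3.21 CPM at 0 h, 8.04 and 6.66 CPM at 4 h, 147 CPM at 12 h, and 297 and 310 CPM at 36 h. The 4 time points did not overlap, and the order of their levels was the order of time. The log2 fold change was 1.19 (SE 0.221) at 4 h against 0 h, with an edgeR adjusted p of 0.0225. With limma on log2(FPKM + 1) and log2(FPKM + 0.1) this early call was lost, with adjusted p-values of 0.125 and 0.0675. From 4 h to 12 h the log2 change was 4.33 (SE 0.197, adjusted p = 1.13e-04) and from 12 h to 36 h it was 1.04 (SE 0.199, adjusted p = 0.0124). Over the span from 4 h to 36 h it was 5.37 (SE 0.192, adjusted p = 4.63e-06). ADAM19 thus differed from ADAMTS4 in its last step: it was 2.06-fold higher at 36 h than at 12 h, where the 36 h libraries of ADAMTS4 lay on both sides of the 12 h library. The difference between the genes was not tested.

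The deposited locus of ADAM19 is merged with neighbouring rows, among them NIPAL4 and CYFIP2. NIPAL4 had 4.01 CPM at 0 h, 10.3 and 8.06 CPM at 4 h, 46.6 CPM at 12 h, and 20.6 and 17.9 CPM at 36 h, so it was highest at 12 h, where ADAM19 was not. CYFIP2 fell between 4 h and 36 h, with a log2 fold change of -2.22 (SE 0.218, adjusted p = 2.76e-04, edgeR). How fragments were divided among rows of a shared locus was not tested. Both ADAMTS4 and ADAM19 entered the time-course test only through their libraries from 4 h on, since neither reached 1 FPKM, a unit that also corrects for transcript length, at 0 h.

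ADAM8 (chromosome 10, 135075921 to 135090372, hg19), a sheddase best known from leukocytes and from invasive tumours, started low and climbed. It stood at 7.95 CPM at 0 h, 13.4 and 9.59 CPM at 4 h, 18.7 CPM at 12 h, and 25.8 and 23.8 CPM at 36 h. Both 36 h libraries were above all earlier libraries. The log2 fold change was 1.64 (SE 0.281, adjusted p = 0.00643) at 36 h against 0 h and 1.11 (SE 0.220, adjusted p = 0.00604) at 36 h against 4 h, by edgeR. At 12 h against 0 h it was 1.23 (SE 0.305, adjusted p = 0.0715), short of the threshold, and it passed with DESeq2 (adjusted p = 0.0205), with no filter on low values (adjusted p = 0.00454) and without the first or the second 4 h library (adjusted p = 0.00288 and 0.00335). At 4 h against 0 h it was called without the second 4 h library (0.75, adjusted p = 0.0453), and at 12 h against 4 h without the first (0.96, adjusted p = 0.0127). Calls made with a 4 h library left out rest on the spread of the 36 h pair alone, and 0 h and 12 h had 1 library each. Leukocyte markers, as given above, were also higher at 36 h than at 0 h, and their part in the ADAM8 result was not tested.

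ADAM12 (chromosome 10, 127700956 to 128359079, hg19), also called meltrin alpha, was lowest at the end of the course. It stood at 62.0 CPM at 0 h, 62.7 and 61.1 CPM at 4 h, 81.5 CPM at 12 h, and 43.9 and 29.6 CPM at 36 h. The 36 h libraries were the lowest of the 6. The log2 fold change was -1.14 (SE 0.243, adjusted p = 0.0171) at 36 h against 12 h and -0.74 (SE 0.207, adjusted p = 0.0237) at 36 h against 4 h. Without the second 36 h library these became -0.89 (adjusted p = 0.0823) and -0.50 (adjusted p = 0.230), so both calls were lost without it. Against 0 h the value at 36 h was -0.75 (SE 0.244, adjusted p = 0.0686). It passed the threshold without the first or the second 4 h library, where the spread came from the 36 h pair alone.

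ADAM15 (chromosome 1, 155006300 to 155060006, hg19), whose disintegrin domain carries an integrin-binding motif, drifted down late. It stood at 238 CPM at 0 h, 284 and 275 CPM at 4 h, 237 CPM at 12 h, and 178 and 181 CPM at 36 h. The log2 fold change at 36 h against 4 h was -0.64 (SE 0.143, adjusted p = 0.0102), and both 36 h libraries lay below all others. Leaving out the first or the second 36 h library kept the size of the change, at -0.63 and -0.65, and lost the call, with adjusted p-values of 0.0969 and 0.0866. The ADAM15 row shares its deposited locus with DCST1, with linc-DCST1-AS and with a row that joins EFNA3 and EFNA4. At 36 h against 4 h the joined row was called higher (log2 fold change 1.04, SE 0.243, adjusted p = 0.0119, edgeR). The linc-DCST1-AS row was not called (0.27, SE 0.363, adjusted p = 0.592). How fragments were divided among these rows was not tested.

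ADAM10 (chromosome 15, 58877768 to 59042177, hg19), the sheddase of Notch and E-cadherin, was highest at 36 h. A row named linc-ADAM10-AS, antisense by its name and at the same locus, was also higher at 36 h than at 4 h. It had 31.8 and 30.4 CPM at 4 h and 41.3 and 54.9 CPM at 36 h. Its log2 fold change was 0.63 (SE 0.189, adjusted p = 0.0323, edgeR). Without a strand setting, reads of ADAM10 and of this row cannot be told apart. ADAM10 itself stood at 165 CPM at 0 h, 141 and 155 CPM at 4 h, 138 CPM at 12 h, and 223 and 205 CPM at 36 h. The log2 fold change was 0.53 (SE 0.150, adjusted p = 0.0243) at 36 h against 4 h and 0.64 (SE 0.188, adjusted p = 0.0480) at 36 h against 12 h. Scaled by library total alone, these were 0.28 (adjusted p = 0.166) and 0.32 (adjusted p = 0.225). Without the first or the second 36 h library they were also not called, with adjusted p-values of 0.205 and 0.106 against 4 h and 0.243 and 0.171 against 12 h.

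ADAM17 (chromosome 2, 9614670 to 9695917, hg19), the tumour necrosis factor converting enzyme, stood at 76.8 CPM at 0 h, 90.6 and 123 CPM at 4 h, 77.5 CPM at 12 h, and 109 and 119 CPM at 36 h. The 4 h libraries spanned both 36 h libraries, and the log2 fold change of 36 h against 4 h was 0.09 (SE 0.185, adjusted p = 0.727). ADAM9 (chromosome 8, 38854505 to 38963194, hg19), a widely expressed sheddase, stood at 308 CPM at 0 h, 261 and 333 CPM at 4 h, 229 CPM at 12 h, and 368 and 314 CPM at 36 h. Its 4 h and 36 h libraries overlapped, with a log2 fold change of 0.20 (SE 0.177, adjusted p = 0.404). Rows named linc-ADAM9-AS share its locus, and the larger had 1006 and 1320 fragments at 4 h and 1105 and 773 at 36 h. That row was not called at 36 h against 4 h (0.22, SE 0.191, adjusted p = 0.387, edgeR). Its reads and those of ADAM9 cannot be told apart without a strand setting. For both genes the spread at 4 h was large, with SDs of 22.8 CPM for ADAM17 and 50.7 CPM for ADAM9 (n = 2). With a 4 h library left out, the spread came from the 36 h pair alone, so the calls that follow rest on that pair. Without the first or the second 4 h library, ADAM17 was called higher at 36 h against 0 h (log2 fold change 0.57 and 0.61, adjusted p = 0.0138 and 0.0117) and at 36 h against 12 h (0.55 and 0.57, adjusted p = 0.0153 and 0.0154). Without the first 4 h library it was also called higher at 4 h against 0 h (0.68, adjusted p = 0.0155) and lower at 12 h against 4 h (-0.66, adjusted p = 0.0233). ADAM9 was then called higher at 36 h against 12 h (0.57 and 0.59, adjusted p = 0.0158 and 0.0150).

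ADAMTS1 (chromosome 21, 28207264 to 28218975, hg19), another secreted protease of versican and aggrecan, was near the detection limit and did not enter the test. It had 18 fragments at 0 h, 19 and 18 at 4 h, 27 at 12 h, and 3 and 0 at 36 h. Per scaled fragment, 36 h stood at 0.111 of the 4 h level (exact 95% interval 0.0219 to 0.351) and 4 h at 2.74 of the 0 h level (1.52 to 5.11), both intervals for counting error only. With no filter on low values, the edgeR log2 fold change at 36 h against 4 h was -3.18 (SE 0.793, adjusted p = 4.48e-04). At 4 h against 0 h it was 1.51 (SE 0.620) and did not pass the threshold. The row linc-ADAMTS1-AS, antisense by its name, had more fragments than ADAMTS1 itself: 190 at 0 h, 232 and 337 at 4 h, 140 at 12 h, and 32 and 24 at 36 h. Its log2 fold change at 36 h against 4 h was -2.83 (SE 0.280, adjusted p = 2.77e-04, edgeR), and without a strand setting the rows cannot be told apart.

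Counted by comparison, members were called as follows, with the share of all 15572 tested rows called in that direction beside each. At 4 h against 0 h, 2 of 8 tested members were called higher (3.15% of all rows) and 0 lower (3.09%), and at 12 h against 0 h 2 were higher (3.04%) and 0 lower (1.2%). Between 0 h and 36 h, 3 were higher (9.99%) and 0 lower (9.36%). From 4 h to 12 h, 2 were higher (2.96%) and 0 lower (1.64%), and from 12 h to 36 h 2 were higher (10.3%) and 1 lower (10.5%). Between 4 h and 36 h, 4 were higher (18.8%) and 2 lower (20.5%). ADAMTS4 and ADAM19 supplied both higher calls in each comparison of 4 h or 12 h with an earlier time. The comparisons share libraries, so their counts are not independent, and 2 of the 8 members were tested only because of their levels from 4 h on. The members were also chosen with earlier results of these data known. Scaled by library total alone, the calls over all rows shifted downwards: at 36 h against 4 h from 2930 higher and 3200 lower to 1861 and 4823, at 36 h against 0 h from 1556 and 1458 to 1016 and 3740, and from 12 h to 36 h from 1609 and 1641 to 836 and 3275.

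**Figure D2:**
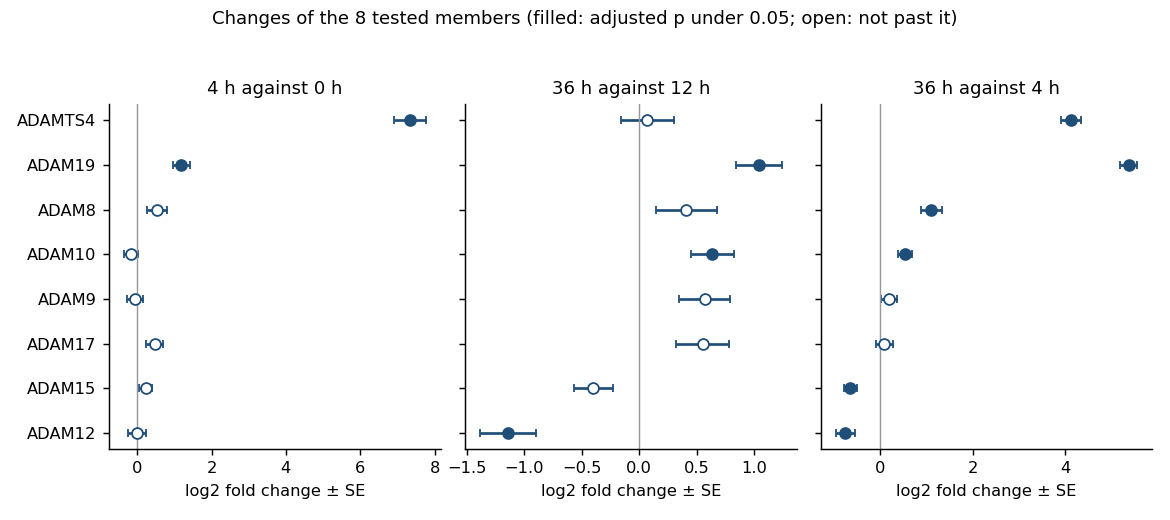
Log2 fold changes with their standard errors (edgeR) for the 8 tested members in 3 comparisons of the time course; each panel has its own horizontal scale. Filled points are past an adjusted p of 0.05 and open points are not: ADAMTS4 and ADAM19 stand far to the right at 36 h against 4 h (4.13 and 5.37), while ADAM12 and ADAM15 lie to the left (-0.74 and -0.64).

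On the FPKM scale, which corrects for transcript length and allows genes to be compared, the make-up of the 9 genes changed. At 0 h the order of levels was ADAM15 (86.2 FPKM), ADAM9 (74.5), ADAM10 (42.6), ADAM17 (25.2), ADAM12 (12.8), ADAM8 (3.26), ADAM19 (0.505), ADAMTS1 (0.0651) and ADAMTS4 (0.0273). With 1 library at 0 h, the spread between neighbours in that order is unknown. At 4 h ADAM15 led with 105 ± 0.758 FPKM (SD, n = 2), before ADAM9 at 74.1 ± 13.96. ADAM17 (41.1 ± 14.4) and ADAM10 (39.4 ± 3.66) overlapped there, as did ADAM8 (5.67 ± 1.22) and ADAMTS4 (5.26 ± 0.149). ADAM12 stood between these pairs at 13.5 ± 0.409, and ADAM19 (1.397 ± 0.0250) and ADAMTS1 (0.187 ± 0.0301) came last. In the 12 h library ADAMTS4, at 80.99 FPKM, was second to ADAM15 at 87.4, and ADAM19, at 24.6, had passed ADAM12 at 17.1. At 36 h ADAMTS4 led with 89.8 ± 13.6 FPKM (SD, n = 2), not separable from ADAM9 at 87.6 ± 8.37, and both were followed by ADAM15 at 68.6 ± 1.41, ADAM10 at 57.4 ± 2.42 and ADAM19 at 53.8 ± 1.02. ADAM10 and ADAM19 did not overlap at 36 h (59.1 and 55.7 against 54.5 and 53.1 FPKM). Below them came ADAM17 at 41.7 ± 4.03, ADAM8 at 10.2 ± 0.949, ADAM12 at 7.93 ± 1.94 and ADAMTS1 at 0.0158 ± 0.0223 FPKM. ADAMTS4 and ADAM19 made up 0.0112% and 0.206% of the 9 members' summed FPKM at 0 h, and 22.9% and 12.6% in the first and 20.0% and 13.2% in the second 36 h library. The summed FPKM itself was 245 at 0 h, 264 and 307 at 4 h, 340 at 12 h, and 433 and 401 at 36 h.

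**Figure D3:**
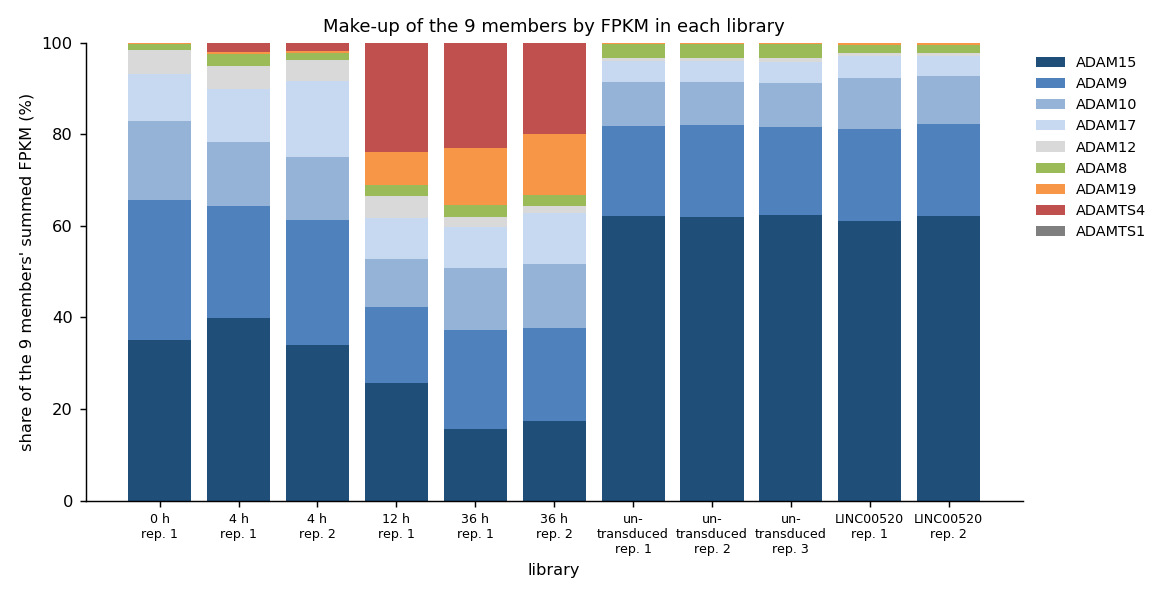
Share of the 9 members' summed FPKM taken by each gene, in percent, for each of the 6 time-course and 5 over-expression libraries. ADAMTS4 goes from 0.0112% at 0 h to 23.8% at 12 h, and ADAM15 takes 61.1% to 62.3% in every parental library; the 2 tables were normalised separately.

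RefSeq promoter windows (GRCh38.p14, 250 bases before to 50 after the gene's start) were matched by symbol for 6 of the 9 members. Those of ADAM19 and ADAM8, which both rose to 36 h, and of ADAM12, which was lowest there, are shown because these members moved in opposite directions. Capitals mark CG dinucleotides, and each sequence runs 5′ to 3′ on the gene's strand, which is the minus strand for all 3.
ADAM19 (chr5:157575726-157576025): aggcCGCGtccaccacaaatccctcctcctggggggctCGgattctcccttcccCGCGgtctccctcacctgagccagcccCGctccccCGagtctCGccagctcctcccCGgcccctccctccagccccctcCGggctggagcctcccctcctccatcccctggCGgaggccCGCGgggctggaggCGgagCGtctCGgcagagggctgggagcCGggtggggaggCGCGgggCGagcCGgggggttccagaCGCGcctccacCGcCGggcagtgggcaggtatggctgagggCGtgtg
ADAM8 (chr10:133276819-133277118): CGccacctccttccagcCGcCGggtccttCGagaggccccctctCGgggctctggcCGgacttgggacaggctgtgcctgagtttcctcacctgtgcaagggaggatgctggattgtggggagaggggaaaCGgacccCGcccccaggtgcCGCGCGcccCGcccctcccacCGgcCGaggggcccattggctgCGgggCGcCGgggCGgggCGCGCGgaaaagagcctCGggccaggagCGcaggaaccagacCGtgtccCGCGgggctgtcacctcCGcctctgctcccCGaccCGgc
ADAM12 (chr10:126388428-126388727): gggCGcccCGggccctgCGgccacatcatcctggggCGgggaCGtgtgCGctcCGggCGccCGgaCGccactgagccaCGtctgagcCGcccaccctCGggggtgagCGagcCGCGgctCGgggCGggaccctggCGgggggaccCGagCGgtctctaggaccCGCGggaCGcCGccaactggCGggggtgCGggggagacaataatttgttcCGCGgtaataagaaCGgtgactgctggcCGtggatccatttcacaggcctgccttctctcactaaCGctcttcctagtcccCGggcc
The windows hold 26, 29 and 33 CG dinucleotides, against a median of 14 over all 35116 windows of this length, and their GC content is 75.7%, 74.0% and 71.0% against a median of 58.7%. The windows of ADAM10, ADAM15 and ADAM17 hold 30, 44 and 36. On both strands, 4 motifs were searched: AP-1 (TGANTCA), STAT (TTCNNNGAA), NF-kB (GGNNTTTCC) and FOXO (GTAAACA). They occur in 7.71%, 7.66%, 6.26% and 3.42% of all windows, and in none of the 6 member windows. This says only that those letters are absent from these 300 bases.

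Genes whose level followed a member most closely were found by Pearson's r of log2 CPM over the 6 time-course libraries, which share their groups, so r is a description. ADAMTS4 was most like KRT6A, a stress keratin (r = 0.996), and TRIM40 (r = 0.994), with 9 rows at 0.99 or more. ADAM19 was most like SCN4B and LRP10 (both r = 0.998), with 18 rows at 0.99 or more. ADAM10 was most like SDCCAG10 and the mesenchymal filament gene VIM (both r = 0.998), ADAM8 like FAM129B and SEMA4B (r = 0.993 and 0.992), and ADAM12 like STIM1 and UHRF1 (r = 0.996 and 0.991). ADAM15 was most like AKAP1 and ALPK2, with 31 rows at 0.99 or more, ADAM9 like C1orf21 (r = 0.997), and ADAM17, with no row at 0.99, like PWP1 (r = 0.989).

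Of the 17 other ADAMTS genes on the list, 4 were expressed well enough to be tested in the time course, and 3 of them rose at 36 h against 4 h and none fell (18.8% of all tested rows higher, 20.5% lower). ADAMTS9, a versican-cutting protease, climbed from 3.94 CPM at 0 h to 30.2 and 27.7 at 4 h, 143 at 12 h, and 345 and 301 CPM at 36 h. Its log2 fold change was 2.87 (SE 0.227, adjusted p = 0.00129) at 4 h against 0 h and 3.48 (SE 0.170, adjusted p = 1.23e-05) at 36 h against 4 h. ADAMTS6 rose late, from a mean of 3.21 CPM at 4 h (SD 0.206) to 21.9 CPM at 36 h (SD 0.617, adjusted p = 9.21e-05, edgeR). ADAMTS12 was also called (log2 fold change 0.82, adjusted p = 0.0402) and lost that call in 7 alternatives, among them each 36 h library left out. ADAMTS6 and ADAMTS17 entered the test only through 36 h libraries. ADAMTS9 had 0.549 FPKM at 0 h and 61.5 and 48.4 FPKM at 36 h, with a log2 fold change of 6.36 (SE 0.270). Of 14 other ADAM genes, 2 were tested, and neither was called at 36 h against 4 h or against 0 h. Of 7 ADAMTS-like genes, which lack the protease domain, 2 were tested and 1, ADAMTSL4, rose by a log2 fold change of 1.44 (SE 0.222, adjusted p = 0.00201) from 4 h to 36 h.

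The inhibitors moved in opposite directions. Of 5 on the list, 4 were tested, and at 36 h against 4 h 1 rose and 1 fell (18.8% of all tested rows higher, 20.5% lower). TIMP1 rose from 207 ± 29.7 to 585 ± 38.9 CPM (log2 fold change 1.498, SE 0.168, adjusted p = 4.89e-04, edgeR). TIMP3, an inhibitor of ADAM17 and of ADAMTS4, fell from 7.92 ± 0.692 to 1.51 ± 0.121 CPM (log2 fold change -2.37, SE 0.267, adjusted p = 4.91e-04). At 0 h TIMP1 stood at 114 CPM and TIMP3 at 6.03 CPM. TIMP3 had 344 fragments at 0 h and 33 and 15 at 36 h, so its late level is thinly counted. It reached 1 FPKM only at 0 h and 4 h, and so entered the test only through those libraries.

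**Figure D4:**
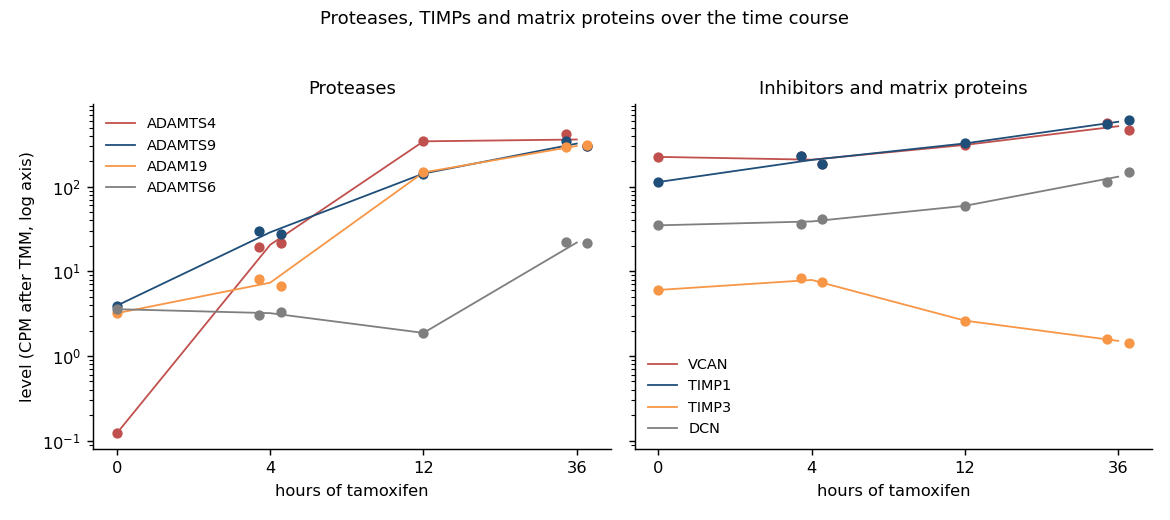
Levels in CPM after TMM, on a log axis, against hours of tamoxifen in evenly spaced steps; points are libraries and lines join group means. Left, ADAMTS4, ADAMTS9 and ADAM19 reach between 297 and 421 CPM at 36 h and ADAMTS6 reaches 22.3 and 21.4 CPM there, after 1.87 CPM at 12 h. Right, TIMP1, VCAN and DCN end higher than they began, and TIMP3 ends lower, at 1.59 and 1.42 CPM.

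Among 13 genes listed as ADAMTS substrates or matrix genes, 6 were tested. At 36 h against 4 h, 3 rose and 1 fell (18.8% of all tested rows higher, 20.5% lower). The list holds SDC4, a gene that is also on the list of shed adhesion proteins. VCAN, which encodes versican, rose from 209 ± 34.9 to 518 ± 70.7 CPM (log2 fold change 1.31, SE 0.184, adjusted p = 0.00136). DCN, the small proteoglycan decorin, rose from 38.9 ± 3.31 to 131 ± 24.1 CPM and is also on the fibroblast marker list. TFPI2 rose from 0.790 ± 0.383 to 4.21 ± 0.759 CPM. THBS1, thrombospondin-1, stood at 993 CPM at 0 h, rose to 5433 ± 563 CPM at 4 h (adjusted p = 0.00244) and fell to 655 ± 49.5 CPM at 36 h (adjusted p = 3.19e-05).

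The genes that mature and carry the sheddases changed in both directions. Of 16 on the list, 14 were tested, with 2 higher and 5 lower at 36 h against 4 h (18.8% of all tested rows higher, 20.5% lower) and none called at 4 h against 0 h (3.15% and 3.09%). TSPAN14, a tetraspanin partner of ADAM10, fell from 50.5 ± 7.81 to 20.4 ± 3.20 CPM (adjusted p = 0.00191). TSPAN15, another ADAM10 partner, rose from 2.51 ± 0.106 to 5.24 ± 0.304 CPM (adjusted p = 0.0141), a call lost without either 36 h library (adjusted p = 0.110 and 0.0536). SH3PXD2B, a podosome scaffold, rose from 53.2 ± 7.77 to 103 ± 0.478 CPM (adjusted p = 0.00346). PCSK7, a proprotein convertase, fell by 0.88 on the log2 scale in counts (adjusted p = 0.00542), and its sign turned in limma on log2(FPKM + 1) (adjusted p = 0.709).

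Known substrates of the sheddases were described from 4 lists. Of the 7 EGF receptor ligands, 6 were tested. At 36 h against 4 h, with 18.8% of all tested rows higher, 20.5% lower, EREG rose from 44.1 ± 9.53 to 194 ± 6.39 CPM (adjusted p = 1.75e-04) and HBEGF fell from 33.6 ± 5.38 to 9.62 ± 3.81 CPM (adjusted p = 0.00226). AREG had fallen by 4 h, from 27.0 to 10.1 ± 1.37 CPM (adjusted p = 0.0174), while TGFA had risen from 52.9 to 126 ± 4.63 CPM (adjusted p = 0.0119); limma on log2(FPKM + 1) did not call either (adjusted p = 0.0926 and 0.0514). Of 11 shed cytokines, chemokines and receptors, 7 were tested, with 3 higher and 3 lower at 36 h against 4 h (18.8% of all tested rows higher, 20.5% lower). The decoy receptor IL1R2 rose from 2.86 ± 0.519 to 85.2 ± 6.23 CPM and the tumour necrosis factor receptor TNFRSF1B from 0.620 ± 0.143 to 13.99 ± 2.21 CPM. CXCL16, KITLG and CSF1 fell, with log2 fold changes of -1.73, -1.74 and -1.61. TNFRSF1B entered the test only through the 12 h and 36 h libraries, and KITLG reached 1 FPKM at every time but 36 h.

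Of 16 shed adhesion proteins and receptors, 13 were tested, with 2 higher and 5 lower at 36 h against 4 h (18.8% of all tested rows higher, 20.5% lower). PVRL4, which encodes nectin-4, rose from 4.10 ± 1.10 to 28.0 ± 0.525 CPM (adjusted p = 1.60e-04), and the receptor kinase MET rose from 320 ± 39.8 to 607 ± 20.5 CPM (adjusted p = 0.00349). CDH1, which encodes E-cadherin, went from 108 CPM at 0 h to 195 ± 25.2 at 4 h and 87.8 ± 5.25 CPM at 36 h, and its fall from 4 h was called (adjusted p = 0.00142). AXL and ALCAM fell by 1.69 and 1.17 on the log2 scale. All 9 genes on the Notch and APP list, which also holds APLP2 and NRG1, were tested. At 36 h against 4 h 1 was higher and 6 were lower, beside 18.8% and 20.5% of all tested rows. NRG1, the neuregulin gene, fell from 7.15 ± 1.11 to 0.694 ± 0.0427 CPM (adjusted p = 2.61e-04), and it reached 1 FPKM at every time but 36 h. NOTCH1 fell from 82.5 ± 38.9 to 35.0 ± 3.39 CPM (adjusted p = 0.0145), a call that limma on log2(FPKM + 1) did not make (adjusted p = 0.0913). No list was tested as a set.

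LINC00520 over-expression in parental cells was read against the same 9 genes. ADAM8 was 1.77-fold lower, ADAM19 was 1.63-fold higher, and ADAM10 was 1.12-fold higher in the 2 LINC00520 libraries than in the 3 untransduced libraries. The other 4 tested members were not called, and neither ADAMTS4 nor ADAMTS1 was expressed well enough to be tested. That is 2 members higher (25.2% of all 12790 tested rows) and 1 lower (24.8%) of 7, a share near that of all rows.

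ADAM8 stood at 28.5, 29.5 and 30.7 CPM in untransduced and at 16.3 and 16.9 CPM in LINC00520 libraries. The groups were far apart, and the log2 fold change was -0.82 (SE 0.0606, adjusted p = 6.35e-11, edgeR). ADAM19 stood at 6.22, 5.39 and 5.60 CPM and at 9.55 and 9.32 CPM. Its log2 fold change was 0.71 (SE 0.0988, adjusted p = 2.10e-06), and it entered the test only because the LINC00520 libraries reached 1 FPKM, at 1.44 ± 0.0209 FPKM (SD, n = 2) against 0.868 ± 0.0798 (SD, n = 3). At the merged locus of ADAM19, CYFIP2 was called lower with LINC00520 (log2 fold change -0.66, SE 0.0436, adjusted p = 9.91e-12, edgeR). NIPAL4, also there, was not called (0.05, SE 0.101, adjusted p = 0.696). The division of fragments among these rows was not tested. ADAM10 stood at 112, 111 and 115 CPM and at 130 and 122 CPM, with a log2 fold change of 0.16 (SE 0.0352, adjusted p = 4.86e-04). Its groups did not overlap, but the difference was small.

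**Figure D5:**
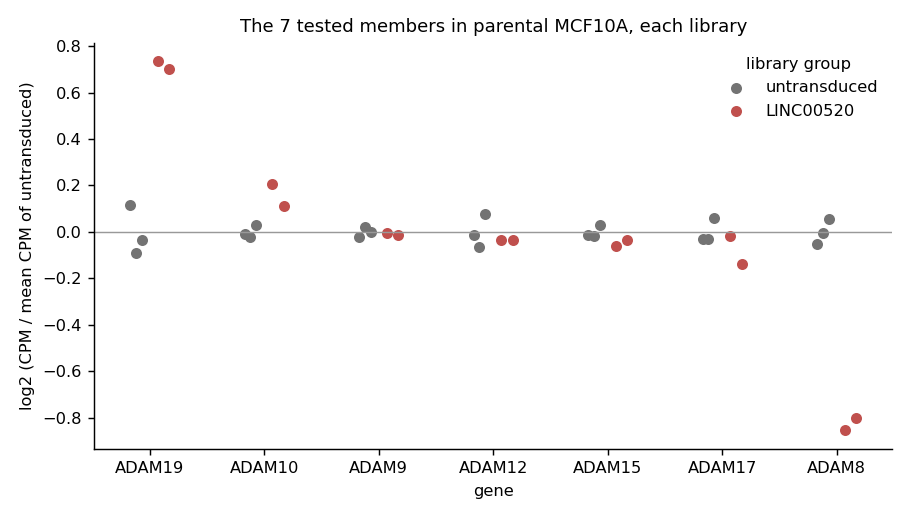
Level of the 7 tested members in each parental library, as the log2 ratio of its CPM to the mean CPM of the untransduced libraries. Grey points are untransduced and red points LINC00520 libraries; ADAM19 and ADAM8 lie apart from the untransduced libraries in opposite directions, and ADAM9, ADAM12 and ADAM17 overlap them.

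ADAM15 stood at 515, 513 and 530 CPM in untransduced and at 498 and 508 CPM in LINC00520 libraries, with a log2 fold change of -0.05 (SE 0.0282, adjusted p = 0.173). For ADAM9 (245, 252 and 248 against 247 and 247 CPM) the log2 fold change was -0.01 (SE 0.0290, adjusted p = 0.833). ADAM17 stood at 48.6, 48.6 and 51.8 against 49.0 and 45.2 CPM (adjusted p = 0.237) and ADAM12 at 9.03, 8.72 and 9.61 against 8.89 and 8.91 CPM (adjusted p = 0.807). ADAMTS1 had 3, 4 and 2 fragments in untransduced and 10 and 7 in LINC00520 libraries, a ratio of 3.58 with an exact 95% interval of 1.51 to 9.12 for counting error. With no filter on low values edgeR gave it a log2 fold change of 1.80 (adjusted p = 0.0202). ADAMTS4 had 3, 3 and 2 fragments against 0 and 1, a ratio of 0.237 with an interval of 0.00534 to 1.77, so no difference was detectable at this depth.

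By FPKM the order in untransduced parental cells was ADAM15 (188 ± 3.42, SD, n = 3), ADAM9 (59.7 ± 0.929), ADAM10 (28.5 ± 0.676), ADAM17 (14.1 ± 0.507), ADAM8 (9.16 ± 0.305), ADAM12 (2.22 ± 0.104), ADAM19 (0.868 ± 0.0798), ADAMTS1 (0.0214 ± 0.00576) and ADAMTS4 (0.0205 ± 0.00190). The first 7 did not overlap their neighbours, while ADAMTS1 and ADAMTS4 did. The LINC00520 libraries had the same order by mean FPKM. ADAM8 fell with LINC00520 and rose over the tamoxifen course in which LINC00520 itself was highest, whereas ADAM19 was higher in both. The experiments differ in cells, agent and time, and no test joined them.

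The counts of partner genes that follow stand beside 25.2% of all tested rows higher and 24.8% lower with LINC00520. Of 3 tested inhibitors all were called lower. TIMP1 and TIMP2 had log2 fold changes of -0.19 (adjusted p = 7.00e-06) and -0.20 (adjusted p = 9.06e-05), and TIMP3 had -0.17 (adjusted p = 0.0288), a call lost in 8 alternatives, where the adjusted p lay between 0.0981 and 0.139. Among the ADAMTS substrates and matrix genes, 3 of 6 tested rose and 2 fell. Those that rose were led by FN1, fibronectin (109 ± 9.78 to 334 ± 11.5 CPM, log2 fold change 1.61, adjusted p = 9.13e-19), and THBS1 (263 ± 14.1 to 529 ± 19.8 CPM, adjusted p = 5.32e-17). VCAN rose by a log2 fold change of 0.43 (adjusted p = 1.65e-08) and SDC4, syndecan-4, fell by 0.46. Of 6 tested EGF receptor ligands, 3 rose and HBEGF fell, by 0.48 on the log2 scale. Of 5 tested shed cytokines and receptors, 1 rose and 4 fell, with IL6R at 26.1 ± 1.99 CPM in untransduced and 13.5 ± 0.0312 CPM in LINC00520 libraries (adjusted p = 1.25e-10). Of 14 tested maturation genes 4 rose and 6 fell, and TSPAN14 fell by 0.42 (adjusted p = 2.65e-09). NRG1 rose from 1.25 ± 0.342 to 3.24 ± 0.302 CPM (adjusted p = 6.14e-06), and it entered the test only because the LINC00520 libraries reached 1 FPKM.

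The authors' deposited table of calls made fewer of these calls. For LINC00520 against untransduced cells, the authors' deposited table called ADAM8 (q = 0.00123) and neither ADAM19 (q = 0.126) nor ADAM10 (q = 0.424). In the time course, the authors' deposited table called ADAM19 at 12 h against 0 h, 36 h against 0 h and 36 h against 4 h (each q = 8.29e-04), and ADAMTS4 at 12 h against 4 h and 36 h against 4 h (each q = 8.29e-04). ADAMTS4 against the 0 h library, which had 7 fragments, was not called in the authors' deposited table at 4 h, 12 h or 36 h (q = 0.190, 0.276 and 0.190), nor was ADAM19 at 4 h against 0 h (q = 0.187). ADAM8 at 12 h against 0 h was called in the authors' deposited table (q = 0.0115). At 36 h against 4 h, ADAM12, ADAM8 and ADAM15 were also called in the authors' deposited table (q = 0.00603, 0.0106 and 0.0162), and ADAM10 was not (q = 0.0501). The authors' deposited calls also held ADAM19 at 12 h against 4 h and at 36 h against 12 h. ADAM8 at 36 h against 0 h and ADAM12 at 36 h against 12 h were called there too. ADAM10 at 36 h against 12 h was not called there.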

How the data were processed

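RNA-seq of 13 samples was deposited, of which 11 were matched to libraries of the tables by condition name, some abbreviated, and replicate number, which the tables count from 0 and the labels from 1; 2 control lincRNA samples matched no condition name and 7 further libraries in the over-expression table matched no label, and none of these was used. Per the submitters' processing notes, CASAVA 1.4, TopHat and Cuffdiff were used with hg19; which versions of the other tools, which gene models and which strand option were used is not given in the sources used here. Per the file headers, the authors' tables hold an estimated count of fragments per gene and library and FPKM as scaled by Cuffdiff. The authors' deposited calls hold a log2 fold change and a q-value per pair of conditions; the time-course log2 column reached values too large for its name and was not used.

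Estimated counts (92.4% to 99.9% whole, within 1e-06) were rounded. Rows with FPKM of 1 or more in 2 libraries (over-expression) or 1 library (time course) and status OK were tested, 12790 and 15572 rows. TMM scaling, estimateDisp, glmQLFit and glmQLFTest were run with all libraries of an experiment in 1 fit and Benjamini-Hochberg adjustment over all rows, threshold 0.05. SE is the absolute log2 fold change over the square root of F. With 1 library at 0 h and 1 at 12 h, the spread of the time course came from the 4 h and 36 h pairs (2 residual degrees of freedom). When a 4 h or 36 h library was left out, it came from the other pair alone. Nothing says that replicates were separate cultures, so p-values reflect library-to-library spread that may be only technical. Replicates differed by more than counting noise, but far less so in the over-expression experiment. The median chi-square of replicate counts over counting noise was 1.63 for untransduced and 1.66 for LINC00520 libraries. It was 13.0 at 4 h and 4.48 at 36 h. Intervals are exact Clopper-Pearson. The fits were tested on simulated data.

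Coordinates are 1-based hg19 from the files; promoter windows are RefSeq, GRCh38.p14. The members, the 10 gene lists, the 6 marker lists and the motifs were chosen with earlier results of these data known. All members are named; from each list up to 3 genes called each way with the smallest p could be named, and likeness named the 2 symbols of highest r. Alternatives were DESeq2 size factors, library totals, no filter, DESeq2's Wald test, limma on log2(FPKM + 1) and log2(FPKM + 0.1), a replicate block, the 4 h and 36 h libraries alone, and each replicate left out. Software: edgeR 4.0.16, DESeq2 1.42.0 and limma 3.58.1 under R 4.3.3, and pandas 2.3.3 and matplotlib 3.10.9 under Python 3.11.15.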

Additional observations from a re-analysis of the deposited data

How the results depend on the processing

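The 3 over-expression calls, the ADAMTS4 and ADAM8 calls, and the ADAM19 calls other than 4 h against 0 h kept their direction and call in every alternative run; the others are below. Members called higher at 4 h against 0 h numbered 1 under both limma settings, and 2 to 3 when a replicate was left out, the third being ADAM17 without the first and ADAM8 without the second 4 h library. At 12 h against 0 h, 3 were higher under DESeq2, without the filter and without either 4 h library, the third being ADAM8. At 36 h against 0 h, 2 were lower by library total and 1 without the filter; leaving out a replicate gave 3 to 5 higher and 0 to 2 lower. At 12 h against 4 h it gave 2 to 3 higher and 0 to 1 lower. From 12 h to 36 h, library total gave 1 higher and 2 lower, both limma settings 1 and 0, no filter 1 and 2, and leaving out a replicate 1 to 4 and 0 to 2. At 36 h against 4 h, limma on log2(FPKM + 0.1) gave 1 lower and leaving out a replicate 0 to 2. Without the first 4 h library, all rows called higher at 4 h against 0 h went from 491 to 1904, and under limma on log2(FPKM + 0.1) to 78. Library total moved the median log2 change of all rows at 36 h against 4 h from -0.04 to -0.29. The cause was not tested. Signs turned for values that were not called. ADAM12 at 4 h against 0 h went to 0.0223 (DESeq2 and its size factors), 0.0793 and 0.0743 (limma) and 0.0549 (no filter), and ADAM9 there to 0.00539 (no filter). ADAM15 at 12 h against 0 h went to 0.0234 (DESeq2 and its size factors), 0.0195 and 0.0193 (limma) and 0.0190 (no filter). By library total, ADAM17 at 12 h against 0 h was -0.0294, ADAM9 at 36 h against 0 h -0.205, ADAMTS4 at 36 h against 12 h -0.233, and ADAM17 and ADAM9 at 36 h against 4 h -0.163 and -0.0505. Leaving out a replicate gave -0.0190 to 0.00345 for ADAM9 and -0.0584 to 0.00241 for ADAM12 in the over-expression comparison, -0.241 to 0.110 for ADAM9 and -0.0194 to 0.0147 for ADAM12 at 4 h against 0 h, -0.00575 to 0.0217 for ADAM15 at 12 h against 0 h, -0.188 to 0.292 for ADAMTS4 at 36 h against 12 h, and -0.112 to 0.376 for ADAM17 at 36 h against 4 h. Deviations of same-numbered libraries had correlations of -0.0497 and -0.0554 in the over-expression experiment and 0.0933 in the time course. These values cannot show whether same-numbered libraries were handled together. With the replicate block no member call changed, and ADAM12 in the over-expression comparison went to 0.00311. Of 102 list-gene calls, 66 were kept in every alternative. Depth limits ADAMTS1 in both experiments and ADAMTS4 at 0 h and in parental cells.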
